A study of Homo sapiens with 6 samples.

Results

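miR-31 is a microRNA made from 1 gene, MIR31, in chromosome band 9p21, and its 2 strands, hsa-miR-31-5p and hsa-miR-31-3p, are 2 of the 2588 mature miRNAs in the deposited table. Both were found by name and each had a single entry. Small RNA was sequenced from A549 cells, an established line of human lung adenocarcinoma, with 3 libraries of parental cells (Ctrl) and 3 libraries of cells with the MIR21 locus deleted by CRISPR/Cas9 (MIR21-KO). All cells were grown in DMEM with serum and harvested 48 h after seeding. The knockout cells were derived as single-cell clones, and the labels do not say how many clones or separate cultures the libraries represent, so the P-values measure the spread between these libraries, which may be technical in part. The libraries held 5577287 to 9768152 miRNA reads. The knockout was visible in every library, since miR-21-5p made up 65.5% to 69.4% of miRNA reads in Ctrl and 0.0156% to 0.0254% in MIR21-KO.

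miRNAs are cut from a hairpin precursor by Drosha and Dicer, and 1 strand of the resulting duplex is usually kept by Argonaute as the guide while the other is mostly degraded. The guide recognizes mRNAs mainly through its seed, bases 2 to 8. miR-31 is known as a miRNA whose role depends on the tumor type: it was described as a suppressor of metastasis in breast cancer, whereas in lung cancer it has been reported to promote growth. The neighboring gene CDKN2A, which encodes the cell cycle inhibitors p16INK4A and p14ARF, is deleted in A549 cells, and deletions of 9p21 in tumors sometimes reach MIR31 as well.

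MIR31 lies on the minus strand at chr9:21512115-21512185 (GRCh38.p14). In GENCODE 29 the hairpin falls within intron 1 of the 4-exon non-coding transcript of MIR31HG, its host gene on the same strand, and overlaps none of its exons. MTAP, a gene of methionine salvage, lies 290 kb away, CDKN2A 456 kb away and CDKN2B 491 kb away. The sequences below are from RefSeq and are shown because the whole comparison concerns the 2 strands of this hairpin. The first is the mature 5p strand at chr9:21512158-21512178 with its seed in capitals, and the second is the 71-base hairpin with the 5p strand, its bases 8 to 28, in capitals.
hsa-miR-31-5p: aGGCAAGAugcuggcauagcu
MIR31 hairpin: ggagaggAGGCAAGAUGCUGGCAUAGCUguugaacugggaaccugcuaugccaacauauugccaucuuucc
In the fold predicted with RNAfold (-36.8 kcal/mol), 17 of the 21 bases of the 5p strand were paired, all with partners between bases 45 and 63 on the other side of the hairpin. None of the other mature sequences among 2370 names in RefSeq shared the seed of hsa-miR-31-5p. hsa-miR-6809-5p shared bases 2 to 7 and had 0 reads in all 6 libraries. The mature hsa-miR-31-3p was not among the RefSeq entries.

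Both strands of miR-31 were read in every library of Ctrl and MIR21-KO cells. hsa-miR-31-5p, the more abundant strand, had 1880, 2412 and 22654 reads in Ctrl replicates 1 to 3 and 68500, 68642 and 7007 in MIR21-KO replicates 1 to 3. hsa-miR-31-3p had 232, 732 and 2612 reads in Ctrl and 8067, 8127 and 873 in MIR21-KO. Thus a hairpin 456 kb from CDKN2A gave mature miRNA of both strands in A549 cells. The copy number of the locus was not measured here. As these are bulk libraries, fewer cells with miR-31 and less miR-31 per cell cannot be told apart.

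The levels are given as the deposited TMM-scaled CPM (reads relative to a scaled library total), in which the reads of a library are all divided by the same number. The TMM factors ran from 0.545 to 0.725 in Ctrl, where miR-21-5p takes most reads, and from 1.38 to 1.91 in MIR21-KO. The level of hsa-miR-31-5p in the Ctrl libraries was 502, 652 and 3197, and in the MIR21-KO libraries 4934, 4951 and 911. Ctrl replicate 3 lay far above the other Ctrl libraries and above MIR21-KO replicate 3, so the groups overlapped, and 2 of the 3 MIR21-KO libraries lay above all Ctrl libraries. The 3 Ctrl libraries averaged 1450 ± 1514 and the 3 MIR21-KO libraries 3599 ± 2327 (SD, n = 3 each). The log2 fold change was 1.47 with a standard error of 0.91 and a 95% interval from -0.66 to 3.60 (limma on log2(value + 1), adjusted P = 0.624 over 607 miRNAs). The interval is wide and holds both no difference and a rise of more than 3 on the log2 scale.

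hsa-miR-31-3p had levels of 62.0, 198 and 369 in Ctrl and of 581, 586 and 114 in MIR21-KO. The same 3 libraries were highest as for hsa-miR-31-5p, but Ctrl replicate 2 lay above MIR21-KO replicate 3 for the 3p strand and below it for the 5p strand. Again Ctrl replicate 3 was the highest Ctrl library, MIR21-KO replicate 3 was the lowest MIR21-KO library, and the groups overlapped. The means were 209 ± 154 and 427 ± 271 (SD, n = 3 each). On the log2 scale MIR21-KO differed from Ctrl by 1.03, with a standard error of 0.88 and a 95% interval from -1.02 to 3.07 (limma, adjusted P = 0.717).

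Neither strand of miR-31 was therefore called higher or lower upon MIR21 deletion. Among all 607 miRNAs tested with limma, 0% were called higher and 0.824% lower at an adjusted P under 0.05, which is 0 and 5 miRNAs. Those lower were miR-4485-3p, miR-194-3p, both strands of miR-21 and miR-192-5p. With each library centred on its median, the log2 fold changes were 1.17 for hsa-miR-31-5p and 0.73 for hsa-miR-31-3p, and neither passed. At an unadjusted P under 0.05 there were 41 higher and 27 lower. edgeR called 0 higher and DESeq2 called 4, and neither tool called a miR-31 strand.

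**Figure D1:**
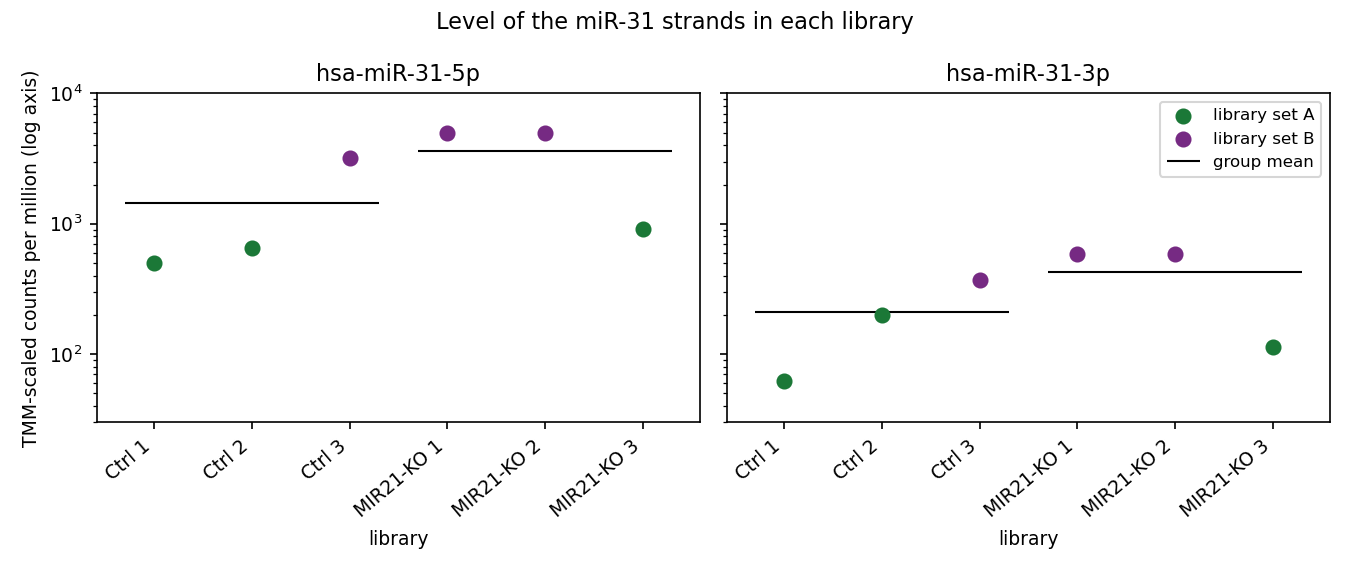
Level of hsa-miR-31-5p (left) and hsa-miR-31-3p (right) in each library, as TMM-scaled CPM on a log axis, with points for libraries, lines for group means and colors for the library sets A and B described in the text. The 3 libraries of set B lie above the 3 of set A for both strands, across the conditions.

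As a share of all miRNA reads, hsa-miR-31-5p made up 0.0274%, 0.0390% and 0.232% in the Ctrl libraries and 0.790%, 0.948% and 0.126% in MIR21-KO. The lowest of these shares had a 95% Wilson interval of 0.0262% to 0.0286%, and the highest had one of 0.940% to 0.955%. Such intervals, which hold no more than counting error, are narrow beside the spread between libraries. The share averaged 0.0994% ± 0.115 over the Ctrl libraries and 0.621% ± 0.436 over the knockout libraries (SD, n = 3 each). The difference of 0.522 percentage points had P = 0.2 by an exact permutation test, two-sided, in which 3 libraries against 3 cannot go below 0.1. With the reads of miR-21-5p and miR-21-3p left out of the total, the Ctrl share rose to 0.322% ± 0.383 while the knockout share stayed at 0.621% ± 0.436, and the difference narrowed to 0.299 percentage points (same exact test, P = 0.2, n = 3 each). For hsa-miR-31-3p these shares were 0.0452% ± 0.0397 and 0.0736% ± 0.0511 (SD, n = 3 each, P = 0.4 in the same exact test).

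In the order of all miRNAs by mean level over the 6 libraries, hsa-miR-31-5p held place 37 and hsa-miR-31-3p place 114. The neighbors of hsa-miR-31-5p were miR-183-5p (2569 ± 1137, SD, n = 6 libraries) and miR-148b-3p (2517 ± 910), against 2524 ± 2114 for hsa-miR-31-5p itself. The neighbors of hsa-miR-31-3p (318 ± 230) were miR-7974 (323 ± 168) and miR-629-5p (318 ± 103). These neighbors cannot be told apart within their spread. Within single libraries the place of hsa-miR-31-5p ran from 20 in MIR21-KO replicate 2 to 82 in Ctrl replicate 1, and that of hsa-miR-31-3p from 81 to 168 in the same libraries.

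The libraries fell into 2 sets that cross the conditions, and miR-31 moved with them. In a principal component analysis of the 328 other miRNAs with a mean level of at least 10, leaving out both strands of miR-31 and of miR-21, the first component held 76.2% of the variance. It parted Ctrl replicates 1 and 2 with MIR21-KO replicate 3 (set A) from Ctrl replicate 3 with MIR21-KO replicates 1 and 2 (set B). The labels name no batch, date or run that would match these sets, and their part in the result was not tested beyond the values given here.

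hsa-miR-31-5p was higher in set B than in set A by 2.48 on the log2 scale in Ctrl and by 2.44 in MIR21-KO, which is 5.58-fold and 5.42-fold. For hsa-miR-31-3p the differences were 1.72 and 2.35. Each of these exceeded the corresponding fold change between the conditions. Averaged over both conditions, the set difference was 2.46 for hsa-miR-31-5p. Of the 332 miRNAs with a mean level of at least 10, 19 had a larger one in the same direction and 35 in either direction. For hsa-miR-31-3p it was 2.04, with 37 of 332 larger in the same direction and 63 in either direction. In all, 180 of the 332 were higher in set B and 152 lower, with a median difference of 0.21. These are descriptions, since the sets were found in the same libraries.

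**Figure D2:**
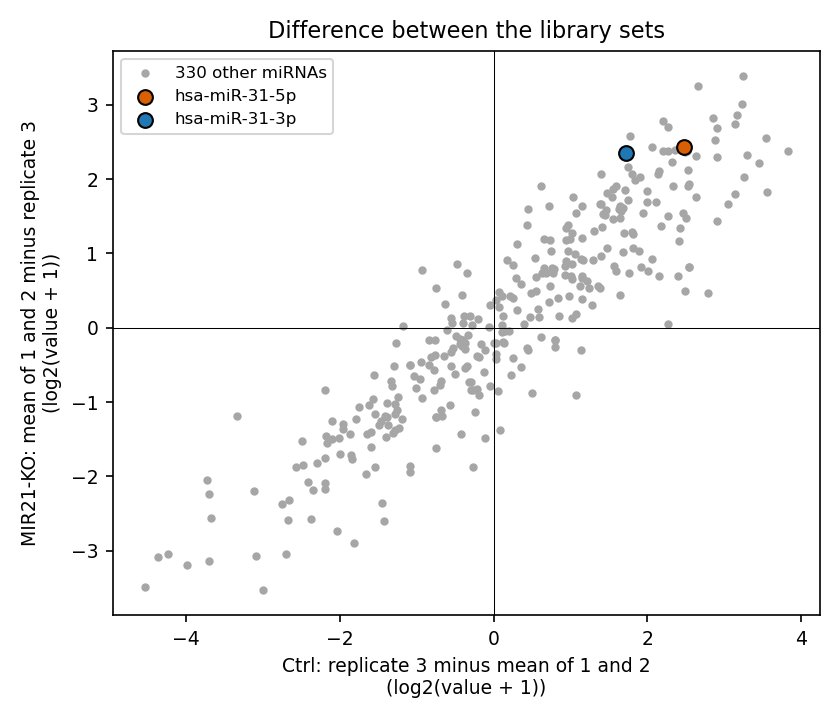
Difference between the library sets on the log2(value + 1) scale for 332 miRNAs, in Ctrl (x axis, replicate 3 minus the mean of replicates 1 and 2) and in MIR21-KO (y axis, mean of replicates 1 and 2 minus replicate 3), 1 point per miRNA. Both strands of miR-31 lie in the upper right, at 2.48 and 2.44 for hsa-miR-31-5p and at 1.72 and 2.35 for hsa-miR-31-3p.

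Within each set the MIR21-KO libraries were above Ctrl for hsa-miR-31-5p. In set A the level was 911 in MIR21-KO replicate 3 against 502 and 652 in Ctrl, a log2 difference of 0.67. In set B it was 4934 and 4951 in MIR21-KO against 3197 in Ctrl, a log2 difference of 0.63. hsa-miR-31-3p gave 0.03 in set A, where MIR21-KO replicate 3 (114) lay between the Ctrl libraries (62.0 and 198), and 0.66 in set B. Each set holds only 1 library of one of the conditions. With the set as a term in limma, the log2 fold change was 0.65 for hsa-miR-31-5p (adjusted P = 0.0539, unadjusted P = 0.0102) and 0.35 for hsa-miR-31-3p (adjusted P = 0.565), so neither passed. In the same limma fit 190 of the 607 miRNAs had an unadjusted P under 0.05, 122 higher and 68 lower. At an adjusted P under 0.05 it called 71 higher and 39 lower. The sets were drawn from these same libraries, which limits what the P-values of this fit can show.

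The spread of miR-31 within the groups was larger than that of most miRNAs. The highest Ctrl level of hsa-miR-31-5p was 6.37 times the lowest, and the highest MIR21-KO level was 5.43 times the lowest. The pooled SD of log2(value + 1) within the groups was 1.43 for hsa-miR-31-5p and 1.33 for hsa-miR-31-3p, against a median of 0.75 over the 332 miRNAs with a mean level of at least 10. Of these, 39 and 46 had a larger SD than the 5p and the 3p strand. In every fit with 1 library left out, both strands kept a positive log2 fold change and neither was called. For hsa-miR-31-5p it was 2.3 without Ctrl replicate 3 (adjusted P = 0.129 from limma), 2.28 without MIR21-KO replicate 3 (adjusted P = 0.274 from limma) and 0.96 without Ctrl replicate 1, the lowest of these fits.

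**Figure D3:**
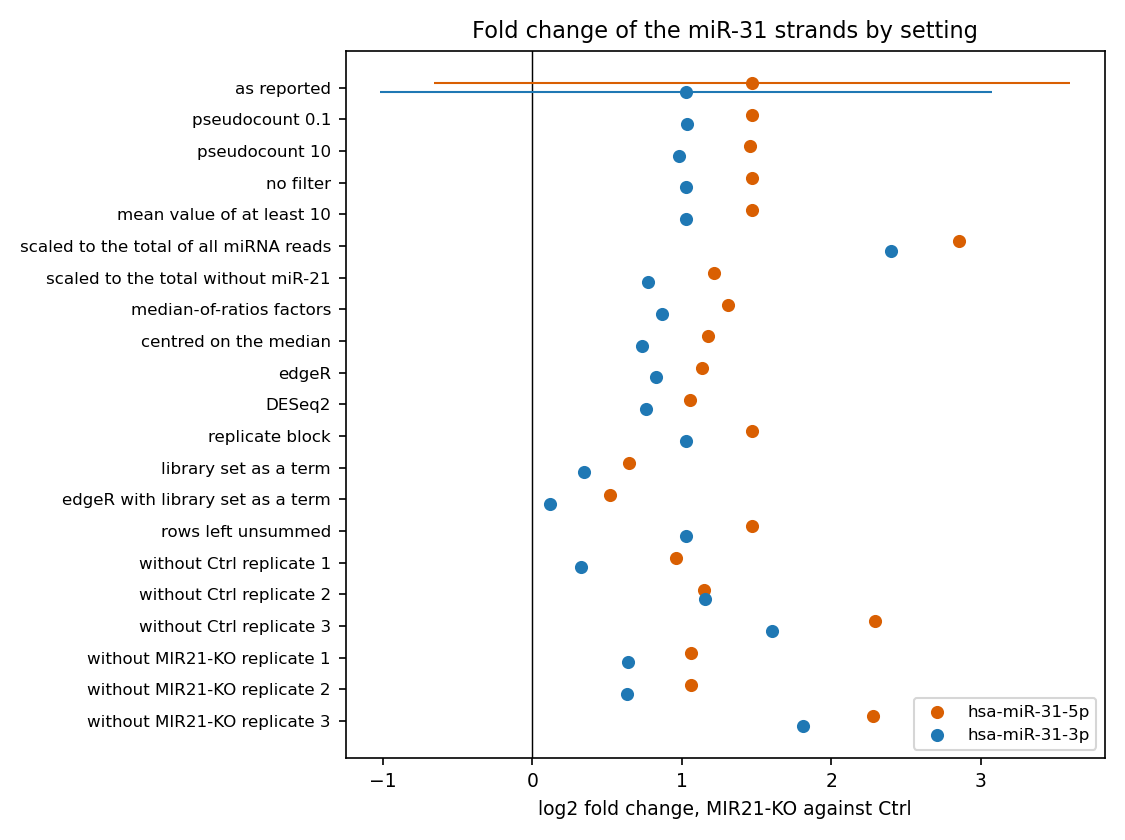
Log2 fold change of MIR21-KO against Ctrl for both strands of miR-31 under each setting, with the 95% intervals of the reported fit as lines in the top row. All values lie above 0, from 0.52 to 2.85 for hsa-miR-31-5p and from 0.12 to 2.40 for hsa-miR-31-3p, and none was called at an adjusted P under 0.05.

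The scaling cancels out when both strands are compared in the same library. There were 8.10, 3.30 and 8.67 reads of hsa-miR-31-5p per read of hsa-miR-31-3p in the Ctrl libraries, and 8.49, 8.45 and 8.03 in MIR21-KO. The ratio lay between 8.03 and 8.67 in 5 of the libraries, although the summed level of both strands ran from 564 to 5537 in them, and Ctrl replicate 2 alone lay far lower. There the 3p strand was 23.3% of the miR-31 reads (95% Wilson interval from 21.8% to 24.8%), whereas in the other 5 libraries it was 10.3% to 11.1%, with the widest interval from 9.72% to 12.4% in Ctrl replicate 1. The interval of Ctrl replicate 2 thus overlapped none of the others.

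**Figure D4:**
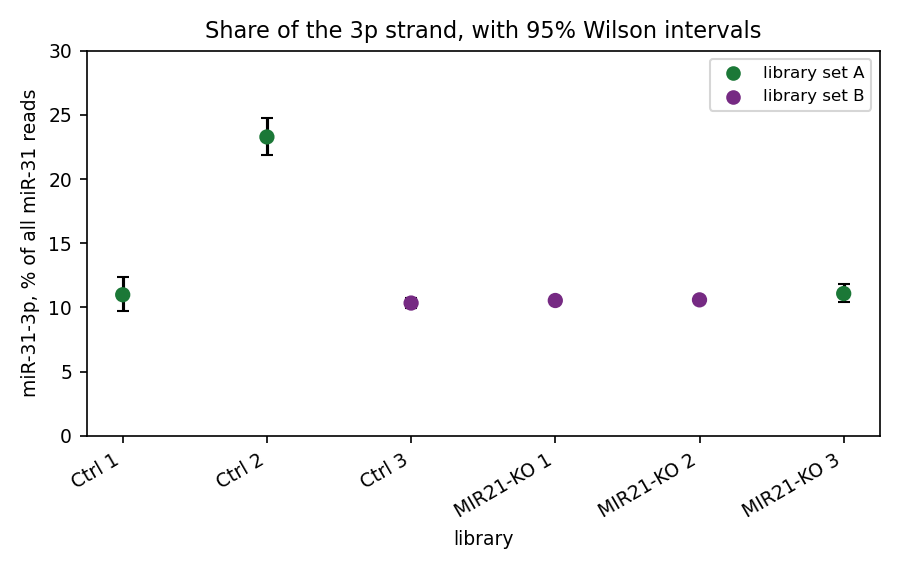
Reads of hsa-miR-31-3p as a percentage of all miR-31 reads in each library, with 95% Wilson intervals as error bars and colors for the library sets. Ctrl replicate 2 stands at 23.3%, and the other 5 libraries lie between 10.3% and 11.1%.

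The log2 ratio of 5p to 3p averaged 2.61 ± 0.78 over the Ctrl libraries and 3.05 ± 0.05 over the knockout libraries (SD, n = 3 each). The difference of 0.44 had a standard error of 0.54 and a 95% interval from -0.85 to 1.73 (adjusted P = 0.889 from limma over 152 hairpins with both strands at a mean level of at least 1). A two-sided exact permutation test of miR-31 alone gave P = 0.7. Among these 152 hairpins 0% were called in either direction with limma, and 4 had an unadjusted P under 0.05. Without Ctrl replicate 2 the difference was -0.0045, so its size and sign rested on that library.

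The strand ratio of miR-31 was one of the steadier ones. Over the 75 hairpins with both strands at a mean level of at least 10, the SD of the log2 ratio across the 6 libraries had a median of 1.08, against 0.55 for miR-31, and 57 of the 75 had a larger SD. The deviation of miR-31 in Ctrl replicate 2 from the median of the other libraries was -1.36. At least as far downward were 21 of the 75 hairpins, miR-31 included, with a median over the 75 of -0.41. Most of the other libraries belong to set B, so differences between the sets also enter this deviation. The ratio of miR-31 was low beside its own set, at 3.30 against 8.10 in Ctrl replicate 1 and 8.03 in MIR21-KO replicate 3. Some other hairpins were also low in Ctrl replicate 2 beside the rest of set A, and some were not. They were not counted. In 38 of the 75 hairpins the 5p strand prevailed, and 23 had a higher median ratio than miR-31.

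miRNAs of other genes on the short arm of chromosome 9 were mostly scarce, and none was called. RefSeq lists 28 further mature miRNAs there, of which 26 were in the table, 18 had at least 1 read and 4 passed the filter for the test. Of the 8 without reads, a count of 0 allows a share of up to 5.38e-05% in the shallowest library (3 reads). With limma 0 of the 4 were called, beside 0% higher and 0.824% lower over all 607 miRNAs, a share at which 4 members would rarely give a call. Of the 4, 0 had an unadjusted P under 0.05, beside 41 higher and 27 lower of 607, and edgeR and DESeq2 also called 0. Their median log2 fold change was 0.09, beside 0.24 over all 607 miRNAs. miR-101-3p, which is also made from a gene on chromosome 1, had a log2 fold change of -0.07, and miR-1299 had 0.25 (adjusted P = 0.938 and 0.905 from limma).

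The nearest miRNA gene with reads was MIR491, within FOCAD and 796 kb from MIR31. miR-491-5p had levels of 0.801, 2.70 and 2.54 in Ctrl and of 6.12, 6.92 and 2.47 in MIR21-KO, 231 reads in all. As for miR-31, MIR21-KO replicates 1 and 2 were the highest libraries and MIR21-KO replicate 3 lay within the Ctrl range. Unlike for miR-31, Ctrl replicate 3 (2.54) did not lie above Ctrl replicate 2 (2.70). A level of 0.267 in Ctrl replicate 1 and of 0.270 in Ctrl replicate 2 is 1 read, so the levels of miR-491-5p there rest on few reads. MIR21-KO was higher by 1.02 on the log2 scale, which did not pass (limma, adjusted P = 0.488). miR-491-3p had only 16 reads. miR-4473 had levels of 52.6, 48.1 and 17.6 in Ctrl against 12.6, 7.57 and 24.8 in MIR21-KO, with a log2 fold change of -1.34 (adjusted P = 0.466 from limma), so it was lower in set B, where miR-31 was higher. miR-4474-3p, miR-876-3p, miR-876-5p, miR-873-3p and miR-873-5p, the others within 10 Mb with any read, had 17, 3, 3, 14 and 13 reads over all libraries.

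Among 21 miRNAs known for roles in metastasis, as miR-31 is, 17 passed the filter. Of the 17, limma called 1 lower, miR-21-5p itself, and 0 higher, beside 5 lower (0.824%) and 0 higher (0%) of all 607 miRNAs. The call of miR-21-5p was fixed by the deletion of its locus, and the 5 lower include both strands of miR-21. These counts therefore say nothing about the rest of the list beyond the absence of a call. At an unadjusted P under 0.05, 2 of the 17 were higher and 3 lower, beside 41 and 27 of the 607. The former were miR-146a-5p (log2 fold change 2.29, adjusted P = 0.276 from limma) and miR-146b-5p (1.39, adjusted P = 0.371), both known to restrain NF-kB signaling. The latter were miR-21-5p from the deleted locus, miR-9-5p (-1.75, adjusted P = 0.191 from limma) and miR-200b-3p (-1.10, adjusted P = 0.431), an epithelial miRNA that targets ZEB1 and ZEB2. The other miR-200 family members on the list went both ways and were not called. Their log2 fold changes were 0.60 for miR-200c-3p, -0.17 for miR-200a-3p, -0.34 for miR-141-3p and -0.48 for miR-429. edgeR called 0 higher and 1 lower, and DESeq2 0 and 2. The median log2 fold change of the 17 was 0.30, beside 0.24 over all miRNAs tested. 2 of the list, miR-373-3p and miR-520c-3p, had no reads, and miR-205-5p, an epithelial miRNA that restrains ZEB1 and ZEB2, had 7.

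By Pearson correlation of log2(value + 1) over the 6 libraries, the miRNAs most like hsa-miR-31-5p among 331 with a mean level of at least 10 were miR-181b-5p (r = 0.993), miR-487b-3p (0.992), miR-224-3p (0.992), miR-335-5p (0.991) and miR-127-5p (0.990). miR-181b-5p, the closest, had levels of 198, 193 and 1005 in Ctrl and of 1904, 1483 and 319 in MIR21-KO. It was high in the same 3 libraries as hsa-miR-31-5p. The other strand, hsa-miR-31-3p, came at place 55 with r = 0.934. In all, 83 of the 331 had r over 0.9, and all points share the library sets, so a high r says little beyond set membership. hsa-miR-31-3p was most like miR-342-3p (r = 0.985), miR-487a-3p (0.975), miR-365a-3p (0.974), miR-125a-3p (0.971) and miR-365b-3p (0.970), and 40 of 331 had r over 0.9. miR-365a-3p and miR-365b-3p have the same mature sequence and are not separate cases.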

How the data were processed

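The authors deposited 1 signal per miRNA and library, in TMM-scaled CPM (read counts relative to a scaled library total). Columns of the authors' comparison (fold change, p-value and FDR) were not used. The submitters' processing notes name hg38, cutadapt 1.14, Bowtie2 2.3.2, SAMtools 1.5, featureCounts 1.5.3 and edgeR 3.18.1. How reads fitting several miRNAs were counted is not given in the sources used here. All values above 0 (100%, tolerance 1e-06) were whole multiples of 1 read, which gave reads back, and edgeR's TMM on these gave the same factors. Entries of 167 names with several rows were summed, leaving 2588 miRNAs.

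limma 3.58.1 (R 4.3.3) was fitted on log2(value + 1), a scale that understates changes of low miRNAs, over the 607 miRNAs that reached a value of 1 in 3 or more of the 6 libraries, with Benjamini-Hochberg adjustment and condition as the only term. edgeR 4.0.16 (quasi-likelihood) and DESeq2 1.42.0 on the recovered reads were alternatives, beside other pseudocounts, filters, scalings, a replicate block, library sets and left-out libraries. Strand ratios were fitted without a trend. The fit was tested on simulated counts of 607 miRNAs, 200 of them changed by 2 on the log2 scale. It recovered 95.5% of these at a dispersion (extra variance of the counts) of 0.05 and 58.5% at 0.3. False ones made up 4.02% and 2.5% of the calls. The simulated counts held no library sets, so these shares do not apply to miR-31, which differed between the sets. The members and lists were chosen with earlier results of these data known. Named miRNAs are both strands, miR-21-5p, short-arm members with reads within 10 Mb, metastasis-list members that were called (else the 4 most abundant), neighbors in rank, the 5 most alike in pattern and sharers of the seed. miRNAs outside this rule (the other called ones, those at an unadjusted P under 0.05 in the metastasis list, miR-6809-5p, miR-373-3p, miR-520c-3p, miR-205-5p, miR-101-3p and miR-1299) were named after their values were seen. So were the other miR-200 family members of the metastasis list. The short arm was taken to end at 43 Mb. Other software was RNAfold 2.7.2, Python 3.11.15, scipy 1.17.1, pandas 2.3.3 and, for plots, matplotlib 3.10.9.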

Additional observations from a re-analysis of the deposited data

How the results depend on the processing

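Both strands of miR-31 kept a positive log2 fold change and stayed uncalled under all 20 alternatives, with adjusted P from 0.0539 to 0.983 for hsa-miR-31-5p and from 0.0905 to 0.987 for hsa-miR-31-3p. The fold change of hsa-miR-31-5p was largest, 2.85 (adjusted P = 0.0649 from limma), when libraries were scaled to their total miRNA reads, which by construction raises all miRNAs other than miR-21 in MIR21-KO (median log2 fold change 1.34 in place of 0.24). With a library left out it ran from 0.96 to 2.3, and for hsa-miR-31-3p from 0.32 to 1.81. The strand ratio difference ran from -0.0045 (without Ctrl replicate 2, the only reversal) to 0.69. With a library left out, the difference in share ran from 0.358 to 0.769 percentage points for hsa-miR-31-5p and from 0.0404 to 0.0886 for hsa-miR-31-3p. It was lower, 0.299 and 0.0285, with miR-21 left out of the total. The 5 miRNAs most like hsa-miR-31-5p shared 1 or 2 with the 5 found under Spearman correlation or without miR-21 in the scaling, and those most like hsa-miR-31-3p shared 4.

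The number of miRNAs called higher was 0, and 196 with scaling to the total, 4 with DESeq2, 71 with the library set as a term and 43 with edgeR and this term, the last chosen after seeing the data. Those called lower numbered 5. There were 3 at pseudocount 10, 9 with median centring, 8 with edgeR, 19 with DESeq2, 2 with the replicate block, 39 with the set term, 49 with edgeR and that term, and 2 to 5 with a library left out. It was 2 without Ctrl replicate 1 or without MIR21-KO replicate 1 or 2, and 3 without Ctrl replicate 2 or MIR21-KO replicate 3. Of the short-arm miRNAs, 2 were called higher with scaling to the total and 1 lower with edgeR and the set term. Of the metastasis list, 4, 4 and 3 were called higher with scaling to the total, the set term and edgeR with it, and 2, 4 and 5 lower with DESeq2, the set term and edgeR with it. Except for scaling to the total, the cause was not tested. Same-numbered libraries of the 2 conditions lay in opposite sets for every replicate number. Their correlations of deviations (-0.79, -0.60 and -0.88) therefore cannot show whether these libraries were paired. With the replicate block the log2 fold changes were again 1.47 and 1.03, with an adjusted P of 0.95 for both from limma. The strand ratio difference was again 0.44. The depth of 5577287 reads or more left counting error small beside the spread between libraries for both strands.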
